A study of Mus musculus with 6 samples.

Results

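Cells make cholesterol from acetyl-CoA, take it up on lipoproteins and pass it out again, and 33 genes of these 3 routes are described here in vascular smooth muscle cells. The list holds enzymes, regulators and transporters matched by gene symbol, and no threshold on measured values enters it, although it was drawn up with earlier results of these data known. All 33 were found among the 32179 genes of the deposited table, and 32 had a mean of at least 10 over all libraries and were tested. Fdps, the gene of farnesyl diphosphate synthase, was at 0 to 3 in every library and was not tested. Of the 4208 exonic bases of Fdps, merged over its annotated transcripts, 1124 (26.7%) are shared with Gm43738 on the same strand, which was at 0 or 1. The share of a single transcript may be larger. The sources used here do not say how reads in shared bases were counted, and their part in the low values was not tested.

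The study compared RNA from smooth muscle cells of vessels in skeletal muscle between control mice and iSM-G5C-KO mice, called KO below, whose smooth muscle had been depleted of GPRC5C, an orphan G protein-coupled receptor, by tamoxifen. There were 3 libraries per group. All mice were male C57BL6J mice of 8 to 24 weeks with a source label of Gprc5c-floxed, all carried the mTmG reporter, which turns on EGFP where Cre has recombined, and controls as well as KO mice had received tamoxifen. Controls carry the genotype label wild type all the same. Cells with CD31, CD45 or Ter119 on their surface were removed on beads, viable EGFP-positive cells were sorted, and 5 ng of total RNA entered each library. The sources used here name neither the promoter that drives Cre nor the number of animals behind a library, and p-values therefore measure only how these libraries vary, which may be technical.

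Values are normalised counts, that is, whole numbers that the authors obtained by scaling each library's read counts. The libraries held an estimated 1479069 to 2935114 reads, and those numbered 3 were the shallowest of both groups. Control library 3 stood apart, with 29707 genes above 0 (7733 of them at 1) against 20481 to 21179 in the others. Gprc5c was at 428, 532 and 497 in control libraries 1, 2 and 3 and at 328, 305 and 360 in KO libraries 1, 2 and 3, lower in each KO library than in any control, at 68.2% of the control mean (exact permutation p = 0.1, 2-sided, the smallest that 3 against 3 libraries allow). The sources used here do not name the exons removed. Smooth muscle markers were high throughout, with Myh11 at 3883 to 4940 and Acta2 at 995 to 1260, and pericyte genes were high as well, with Abcc9 at 1598 to 3458. Libraries with the same number varied together, to differing degrees. Deviations from the group mean correlated over genes at 0.59, 0.31 and 0.44 between libraries with the same number. Between libraries with different numbers the correlations ran from -0.50 to 0.16, the highest being that of control library 3 with KO library 2. Differences between same-numbered libraries are therefore given as well.

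Synthesis runs from acetyl-CoA through mevalonate to farnesyl diphosphate, on to squalene, and then through a series of sterols to cholesterol. When sterols in the endoplasmic reticulum are low, the escort protein SCAP carries the SREBP transcription factors to the Golgi, where they are cut and released to switch on synthesis and uptake genes, while INSIG proteins hold them back when sterols are plentiful. When sterols are high, oxysterols activate the LXR nuclear receptors, which raise the exporters ABCA1 and ABCG1. In vascular smooth muscle this balance is best known from atherosclerosis, where cells that take up more cholesterol than they pass out become laden with lipid.

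Of the 32 genes tested, 25 had a higher mean and 7 a lower mean on the log2 scale in KO libraries, and the median log2 difference was 0.10. Over all 12735 genes tested 50.2% had a higher mean and the median difference was 0.00. These differences were small beside the spread between libraries. None of the 32 passed limma's test over all genes at an adjusted p of 0.05 (0% of all genes passed), and 0 had an unadjusted p under 0.05 (1.81% of all genes did). With the replicate number as a block 0 of the 32 passed (0.00785% of all genes did), and at an unadjusted p under 0.05 there were 2 higher genes, Nr1h3 and Srebf1 (4.29% of all genes), and 0 lower (5.96%). Gprc5c, the depleted gene, did not pass either (adjusted p = 0.999 with limma, and 0.142 with the block). In a bulk sample, a change in the number of cells of a type and a change in RNA per cell cannot be told apart.

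**Figure D1:**
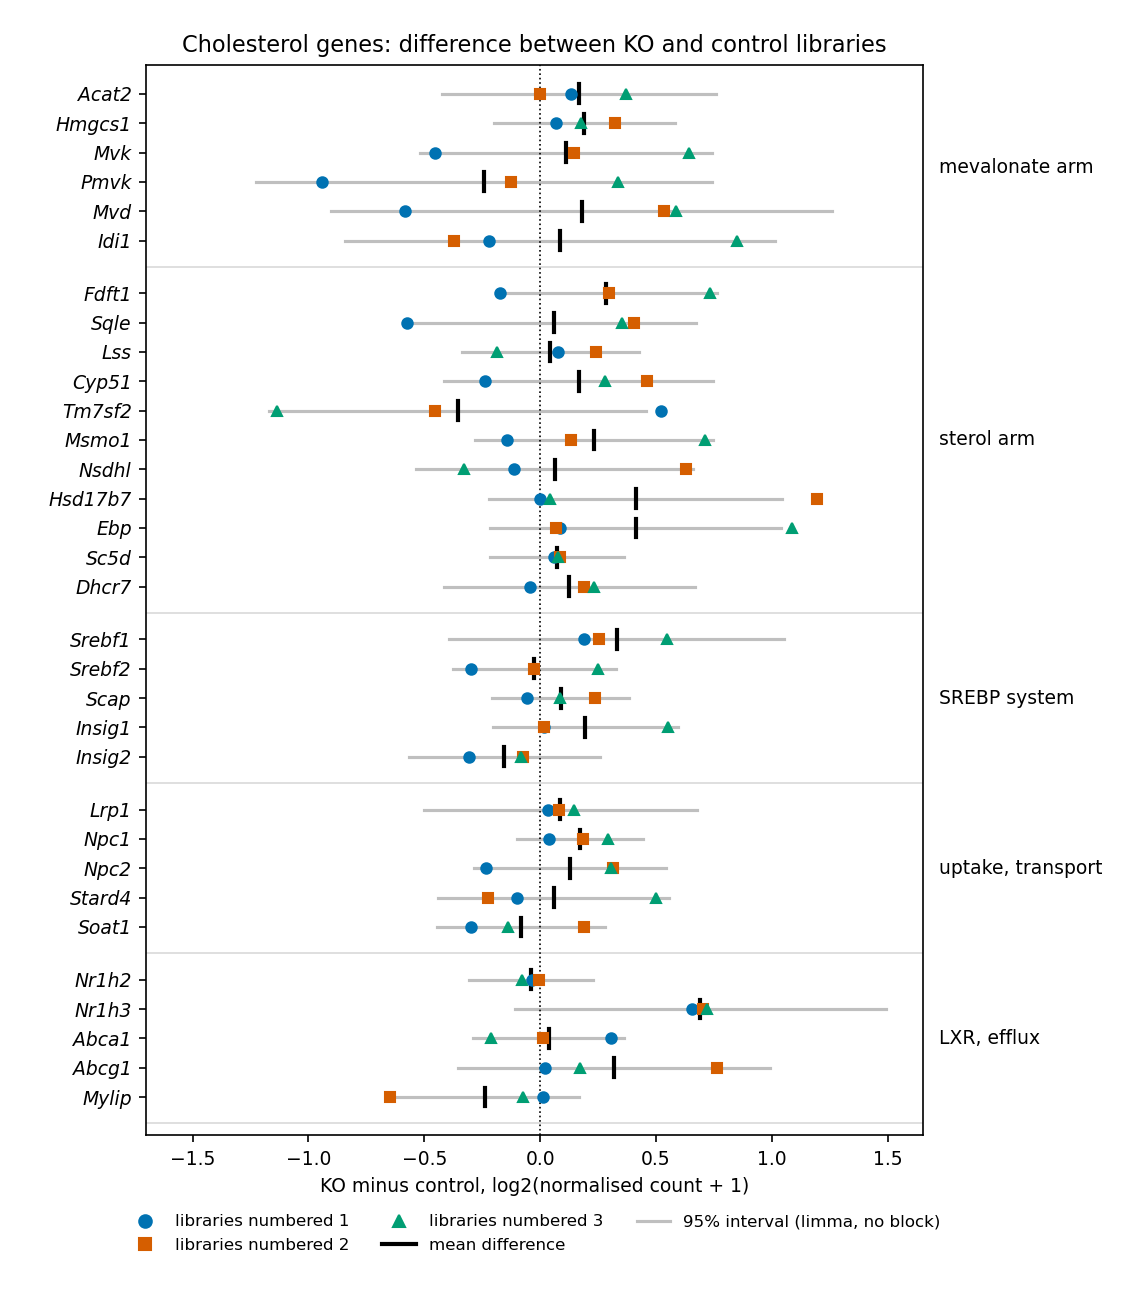
Difference between KO and control libraries, in log2(normalised count + 1), for the 32 genes tested, by role. Coloured points are the differences between libraries with the same number, black bars the mean difference and grey lines its 95% interval from limma without a block. All grey lines cross 0, and the 3 points of Nr1h3 lie close together at 0.65, 0.70 and 0.72.

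The values differed by library number, which was not tested. Between the libraries numbered 1, 14 of the 32 were higher in KO and the median difference was -0.04 (43.9% of all genes were higher). Between those numbered 2, 23 were higher, with a median of 0.17 (48.5% of all genes). Between those numbered 3, 24 were higher, with a median of 0.27 (51.2% of all genes). KO library 2 held the highest value of 13 of the 32 genes and KO library 3 that of 10, ties included. Control library 3 held the lowest value of 11 and KO library 1 that of 8. The median deviation of the 32 genes from their own means was lowest in KO library 1, at -0.16, against -0.09 in control library 3. Without control library 3, KO library 2 or KO library 3, the number of higher genes was 20, 19 and 19. The median depended on single libraries, and was 0.08 without control library 3, 0.01 without KO library 2, 0.23 without KO library 1 and 0.16 without control library 2.

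**Figure D2:**
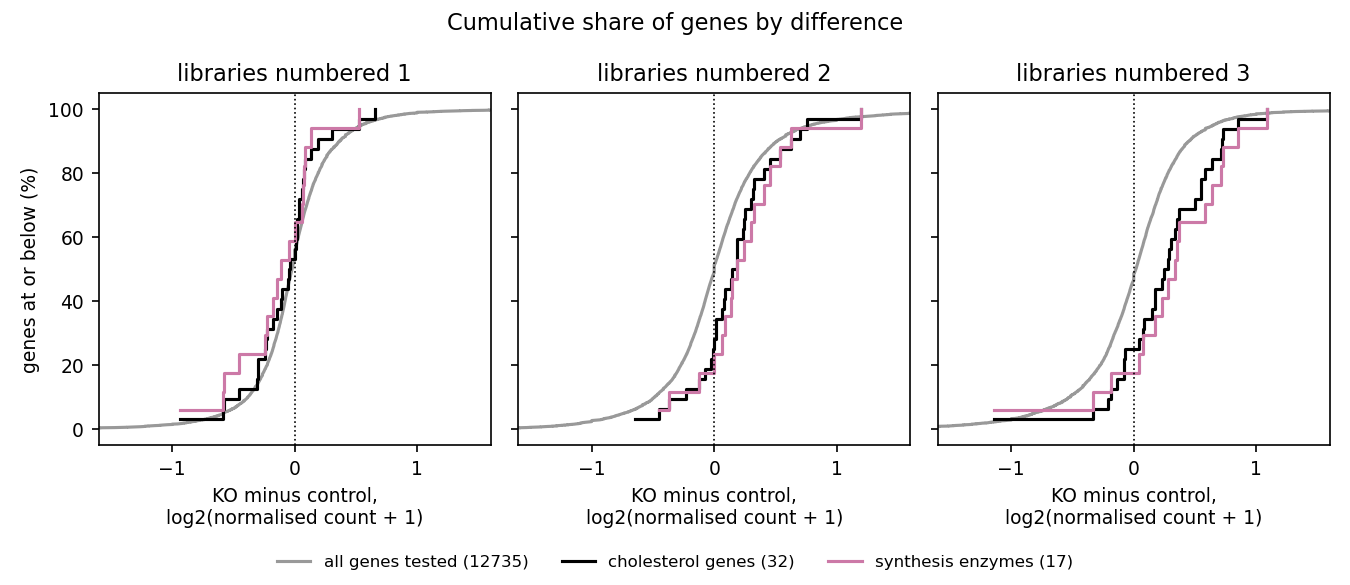
Cumulative share of genes (vertical axis, percent) at or below a difference between KO and control libraries of the same number (horizontal axis, log2 of normalised count + 1), for the 32 cholesterol genes, the 17 synthesis enzymes among them and all 12735 genes tested. The curve of the cholesterol genes lies to the right of that of all genes for numbers 2 and 3, with medians of 0.17 and 0.27, and close to it for number 1, with a median of -0.04.

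In level, the uptake receptor stood first and most enzymes stood below the regulators. Per kilobase of merged exon, Lrp1, the gene of a large endocytic receptor for lipoproteins and matrix proteins, averaged 213.5 normalised counts over the 6 libraries, above 99.1% of the genes tested. Next in the mean over both groups came the LXR and SREBP transcription factor genes with Mylip, among them Nr1h3 at 72.6, Nr1h2 at 70.0, Srebf2 at 65.5, Mylip at 63.5 and Srebf1 at 57.7 per kilobase. In controls alone Nr1h3, at 55.3, stood below Nr1h2 at 71.0, Mylip at 68.4, Srebf2 at 65.8 and the enzyme gene Pmvk at 61.1. The libraries' values of neighbours in this order overlapped. The enzyme genes with the highest means per kilobase were Pmvk at 53.2, which was far higher in control library 1 than elsewhere, and Hmgcs1 at 45.1, and those tested with the lowest level were Idi1 at 4.14, Tm7sf2 at 4.77 and Lss at 5.16. Lengths come from GENCODE vM21 and may differ from the annotation the authors counted on. They merge the exons of all annotated transcripts, so a gene with a long merged length ranks lower per kilobase. Lss, with 10787 merged bases, was at 50 to 64 normalised counts, above Acat2 at 16 to 22 and Mvd at 9 to 29.

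**Figure D3:**
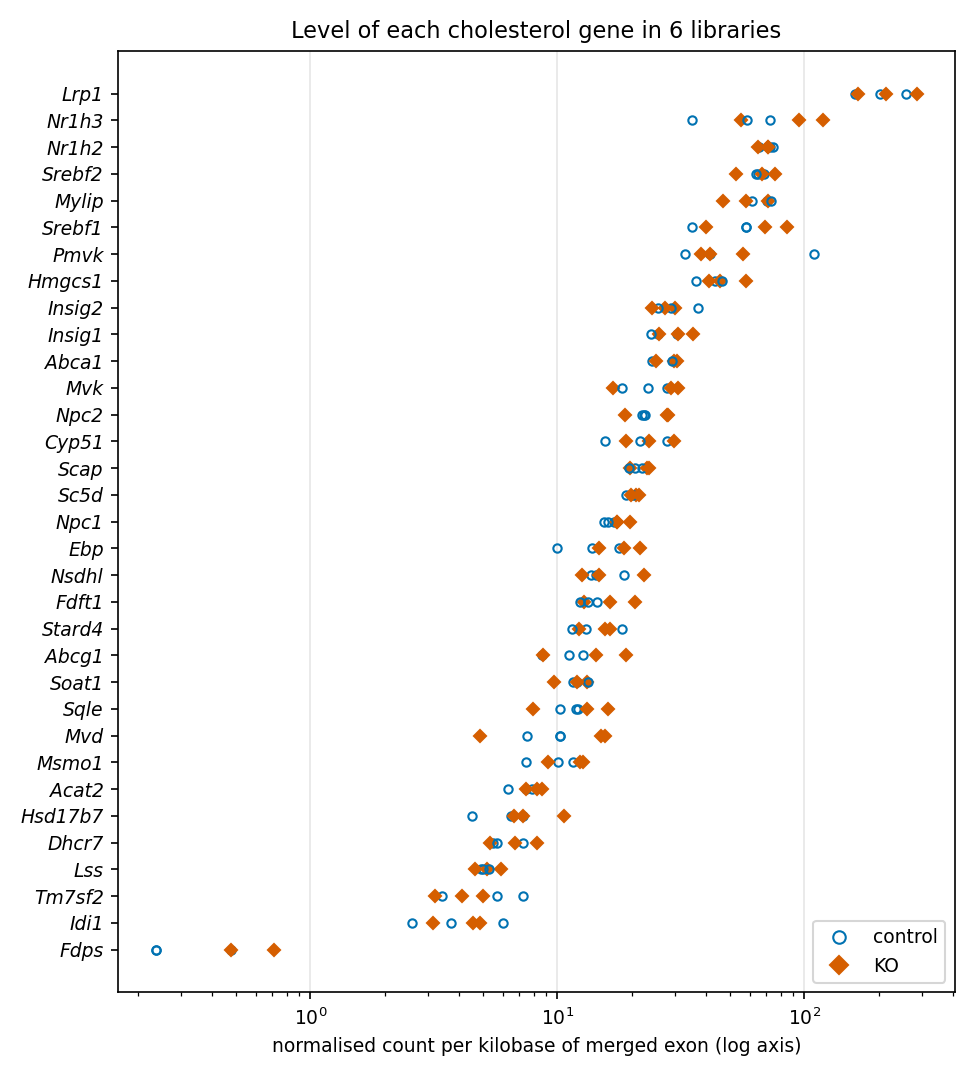
Level of each of the 33 genes in 3 control libraries (open circles) and 3 KO libraries (filled diamonds), as normalised counts per kilobase of merged exon on a log axis, ordered by the mean over all libraries. Lrp1 averages 213.5 and Fdps, at the bottom, is listed at 0 in KO library 1, a value the log axis cannot show.

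SREBPs and LXRs act on their target genes through short sites, many of them near gene starts. The bases before the annotated start were available for 27 of the 33 genes (RefSeq, GRCm38.p6), and 250 of them were searched on both strands. The upstream bases of 5 genes are shown 5′ to 3′ on the gene's strand, with capitals for a sterol regulatory element core, NF-Y boxes and the variant LXR element. A site on the other strand appears as its reverse complement, so that an NF-Y box there reads ATTGG.
Hmgcs1 (chr13:119690101-119690350, plus strand): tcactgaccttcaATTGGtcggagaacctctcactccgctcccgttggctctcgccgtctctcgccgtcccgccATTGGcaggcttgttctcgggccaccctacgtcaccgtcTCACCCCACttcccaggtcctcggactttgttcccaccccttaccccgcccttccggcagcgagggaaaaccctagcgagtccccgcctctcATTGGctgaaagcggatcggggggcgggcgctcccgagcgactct
Mvk (chr5:114444019-114444268, plus strand): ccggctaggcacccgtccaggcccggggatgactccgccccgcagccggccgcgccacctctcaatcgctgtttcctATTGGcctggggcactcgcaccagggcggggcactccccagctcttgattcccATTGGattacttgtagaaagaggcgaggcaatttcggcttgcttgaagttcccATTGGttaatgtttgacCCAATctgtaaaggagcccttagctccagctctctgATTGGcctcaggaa
Srebf1 (chr11:60210472-60210721, minus strand): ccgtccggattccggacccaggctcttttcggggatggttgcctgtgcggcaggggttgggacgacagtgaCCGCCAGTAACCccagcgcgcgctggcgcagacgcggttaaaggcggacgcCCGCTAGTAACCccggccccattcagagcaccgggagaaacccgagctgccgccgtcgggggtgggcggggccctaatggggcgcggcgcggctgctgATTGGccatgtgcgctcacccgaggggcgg
Abca1 (chr4:53159896-53160145, minus strand): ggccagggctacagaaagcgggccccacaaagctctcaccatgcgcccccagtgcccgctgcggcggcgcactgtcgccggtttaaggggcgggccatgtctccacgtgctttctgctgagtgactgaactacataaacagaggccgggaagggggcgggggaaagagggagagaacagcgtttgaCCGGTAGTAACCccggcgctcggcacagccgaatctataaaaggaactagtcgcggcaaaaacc
Nr1h3 (chr2:91195117-91195366, minus strand): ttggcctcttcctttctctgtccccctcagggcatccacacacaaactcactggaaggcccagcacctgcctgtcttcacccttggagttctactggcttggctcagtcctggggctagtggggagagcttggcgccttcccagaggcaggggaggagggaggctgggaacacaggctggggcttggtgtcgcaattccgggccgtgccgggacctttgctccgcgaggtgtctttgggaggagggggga

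Hmgcs1 is shown as the only gene of the 27 with the sterol regulatory element core TCACNCCAC, which SREBPs bind, 129 to 137 bases before its start. This core was found in 1.23% of the tested genes that have a promoter in the same table. Only exact matches to the fixed letters were counted, so sites that differ from them were missed. Mvk is shown for its 5 copies of the NF-Y box CCAAT, a site of the factor that works with SREBP at sterol genes. The box was found in 21 of the 27 genes (77.8%) against 40.4% of tested genes. The Sp1 box GGGCGG was found in 23 of the 27 genes (85.2%) against 65.4%, and the E-box CACGTG in 6 (22.2%) against 9.95%. The LXR element, here the letters AGGTCA followed by any 4 bases and AGGTCA again, was found in 0 of the 27 and 0% of tested genes. A variant of it is the letters GGTTACT followed by any 2 bases and CGG. This variant was added after these sequences had been read, so finding it in them carries no weight. It was found in 2 of the 27, Srebf1 and Abca1, and in 7 of 9361 tested genes (0.0748%). Srebf1 held it at 168 to 179 and at 117 to 128 bases before the innermost of its 3 annotated starts, and Abca1 at 53 to 64 bases. Nr1h3 is shown for comparison, and none of the motifs searched was found before either of its annotated starts. A match is a description of letters and does not show that a factor bound there. No test was made of these shares.

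The mevalonate arm had 6 genes tested, 5 higher and 1 lower in KO libraries, with a median log2 difference of 0.14. Hmgcs1 (chromosome 13, 119690446 to 119708260, plus strand, GRCm38), whose product joins acetyl-CoA to acetoacetyl-CoA and whose promoter held the sterol element core, was at 199, 213 and 167 in control libraries 1, 2 and 3 against 209, 267 and 189 in KO libraries 1, 2 and 3. Each KO library was higher than the control of its number, by 0.07, 0.32 and 0.18, while the groups overlapped. The mean difference of 0.19 had a standard error of 0.17 and an unadjusted p of 0.288 with limma, and of 0.0848 with the block. It was 0.050 without KO library 2 and 0.30 without KO library 3. Acat2, for the acetoacetyl-CoA thiolase, was at 20, 19 and 16 in the control libraries against 22, 19 and 21 in KO, a range of 16 to 22. Pmvk, for phosphomevalonate kinase, was at 187, 71 and 56 in the control libraries against 97, 65 and 71 in KO. Its lower KO mean came from control library 1, without which the difference was 0.27 in place of -0.24. Mvk, Mvd and Idi1, for the kinase before it, the decarboxylase after it and the isomerase of isopentenyl diphosphate, ranged from 9 to 82. Each of these was lower in KO library 1 than in control library 1 and higher in KO library 3 than in control library 3. Mvd, for example, was at 14, 19 and 19 in the control libraries against 9, 28 and 29 in KO, and at an estimated 11 reads its lowest value carried a counting error of 30.2%.

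The squalene and sterol arm had 11 genes tested, 10 higher and 1 lower, with a median log2 difference of 0.13. Ebp, for the sterol isomerase, and Hsd17b7, for a ketoreductase of the demethylation steps, had the largest differences, 0.41 each, with standard errors of 0.27. Ebp was at 32, 41 and 23 in the control libraries against 34, 43 and 50 in KO, so that the difference came mostly from number 3. Hsd17b7 was at 37, 23 and 33 in the control libraries against 37, 54 and 34 in KO, where it came from number 2 alone. Fdft1, for squalene synthase, was at 61, 56 and 52 in the control libraries against 54, 69 and 87 in KO, with a difference of 0.29 and an unadjusted p of 0.203. Of the exonic bases of Fdft1, 18.3% are shared with Ctsb on the opposite strand, a gene at 466 to 573. The sources used here do not say whether counting used strand. Sc5d, for the sterol desaturase, was the steadiest enzyme, at 97, 98 and 92 in the control libraries against 101, 104 and 97 in KO, a difference of 0.07 with a 95% interval of -0.22 to 0.36.

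Sqle, for the squalene epoxidase that controls flux after mevalonate, had 66, 67 and 57 in the control libraries against 44, 89 and 73 in KO. Its KO values lay on both sides of the controls, and the mean difference of 0.06 had an interval of -0.55 to 0.67. Lss, Cyp51, Msmo1, Nsdhl and Dhcr7, which close the ring and trim and reduce it, differed by 0.04 to 0.23. Tm7sf2, for a sterol reductase, was the only enzyme of this arm with a lower mean, at 15, 25 and 32 in the control libraries against 22, 18 and 14 in KO. Of its exonic bases 12.1% are shared with Vps51 on the same strand. Smaller shares of Cyp51 (3.76%, Akap9), Npc1 (4.52%, Rmc1) and Srebf1 (1.93%, Rai1) lie in other genes' exons. Over the 17 enzymes of both arms, 6 were higher between the libraries numbered 1, 13 between those numbered 2 and 14 between those numbered 3, with medians of -0.11, 0.19 and 0.34. Taken by library, the enzymes deviated most from their own means in KO library 2, with a median of 0.29, and in control library 3, with -0.25. The 5 proliferation markers, Mki67, Top2a, Cdk1, Ccnb1 and Birc5, summed to 882 in KO library 2 and to 115 to 268 in the others, and their part in the enzyme values was not tested.

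Within the SREBP system, Srebf1 (chromosome 11, 60199089 to 60220604, minus strand) had the largest difference. It encodes SREBP1, which acts mainly on fatty acid genes, has the LXR element variant before its innermost start, and was at 198, 328 and 328 in the control libraries against 226, 391 and 480 in KO. Libraries numbered 1 were lowest in both groups, and each KO library was above the control of its number, by 0.19, 0.25 and 0.55. The mean difference of 0.33 had an unadjusted p of 0.320 without a block and of 0.00849 with it (adjusted p = 0.281, limma). The difference was 0.088 without control library 1, 0.10 without KO library 3 and 0.64 without KO library 1. Srebf2, for the SREBP that acts mainly on cholesterol genes, was at 467, 491 and 459 in the control libraries against 380, 482 and 546 in KO. Its difference was -0.02 (95% interval -0.37 to 0.33), with signs that differed between numbers. Scap was at 153, 145 and 164 in the control libraries against 147, 171 and 174 in KO, a difference of 0.09 with overlapping groups.

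The INSIG genes had opposite signs, but most of the Insig2 difference came from control library 1. Insig1, itself an SREBP target, was at 79, 94 and 74 in the control libraries against 80, 95 and 109 in KO, so that only KO library 3 stood away from its control. Insig2, which is largely independent of SREBP, was at 129, 100 and 89 in the control libraries against 104, 95 and 84 in KO, lower in each number and with overlapping groups. The differences were 0.20 for Insig1 and -0.15 for Insig2, with standard errors of 0.17 and 0.18, and neither passed. Without control library 1 the difference of Insig2 was -0.0055, and that of Insig1 was 0.089 without KO library 3. Whether the differences of the 2 INSIG genes differ from each other was not tested.

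In uptake and transport, 4 of 5 genes had higher means. Npc1 (chromosome 18, 12189693 to 12236400, minus strand), for the membrane protein that moves cholesterol out of lysosomes, was at 192, 174 and 182 in the control libraries against 197, 198 and 223 in KO. It was the only gene of the 32 without overlap between the groups, higher in KO, as were 2.69% of all genes, and 0 of the 32 were lower without overlap (2.21% of all genes). The difference was 0.17 with an interval of -0.10 to 0.44 and an unadjusted p of 0.181. Npc2, for the soluble partner that hands cholesterol to NPC1, was at 120, 123 and 122 in the control libraries against 102, 153 and 151 in KO. The controls agreed closely, and the KO libraries lay below and above them. Lrp1 was at 2844, 3569 and 4554 in the control libraries against 2908, 3774 and 5044 in KO, so that its level went with library number and KO exceeded control by 0.03, 0.08 and 0.15. Soat1, for the enzyme that esterifies cholesterol for storage, was at 117, 113 and 130 in the control libraries against 95, 129 and 118 in KO, and Stard4, for a sterol carrier of the cytosol, ranged from 64 to 102 with a difference of 0.06.

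Nr1h3 (chromosome 2, 91184061 to 91195151, minus strand), whose upstream bases held none of the motifs, had the largest difference of all 32 genes. It encodes LXR-alpha, the LXR that is abundant in liver, fat and macrophages. It was at 88, 147 and 182 in the control libraries against 139, 240 and 300 in KO. Each KO library was higher than the control of its number, and by nearly the same factor, 0.65, 0.70 and 0.72 on the log2 scale. Since libraries numbered 1 were lowest in both groups, the groups still overlapped, with KO library 1 under control libraries 2 and 3. The control mean was 139.0 ± 47.5 and the KO mean 226.3 ± 81.4 (SD, n = 3 in each group), which is 1.63 times as high. The mean difference of 0.69 had a 95% interval of -0.11 to 1.49 without a block and 0.47 to 0.91 with it. The unadjusted p was 0.0816 without the block and 7.05e-05 with it, which placed Nr1h3 at rank 7 of 12735 genes. The adjusted p from limma was 0.999 and 0.115, so that it passed in neither fit. The difference was 0.40 without control library 1, 0.45 without KO library 3 and 1.01 without KO library 1. An estimated 117 to 260 reads per library lay behind these values, a counting error of 6.20% to 9.24%.

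Nr1h2, for LXR-beta, the LXR found in most tissues, was at 244, 219 and 251 in the control libraries against 238, 218 and 238 in KO. Its difference was -0.04, with a 95% interval of -0.31 to 0.23. Per kilobase, Nr1h3 averaged 55.3 in controls against 71.0 for Nr1h2, and 90.0 in KO libraries against 69.0. In normalised counts Nr1h3 was at 0.584 of Nr1h2 in KO library 1, within the controls' 0.361 to 0.725, and at 1.10 and 1.26 in KO libraries 2 and 3. Abca1, for the exporter that loads cholesterol onto lipid-poor apolipoprotein, was at 249, 312 and 301 in the control libraries against 308, 315 and 260 in KO. The differences by number were 0.31, 0.01 and -0.21, and their mean was 0.04, with a 95% interval of -0.29 to 0.36. Abcg1, for the exporter to mature lipoprotein particles, was at 63, 81 and 93 in the control libraries against 64, 138 and 105 in KO. It was higher in each number, mostly through KO library 2, and without that library the difference was 0.07 in place of 0.32. Mylip, for the LXR-induced ubiquitin ligase IDOL, which marks lipoprotein receptors for degradation, was at 228, 237 and 198 in the control libraries against 230, 151 and 188 in KO. Its lower mean came mostly from KO library 2, and the difference of -0.24, with a standard error of 0.17, was -0.08 without it.

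**Figure D4:**
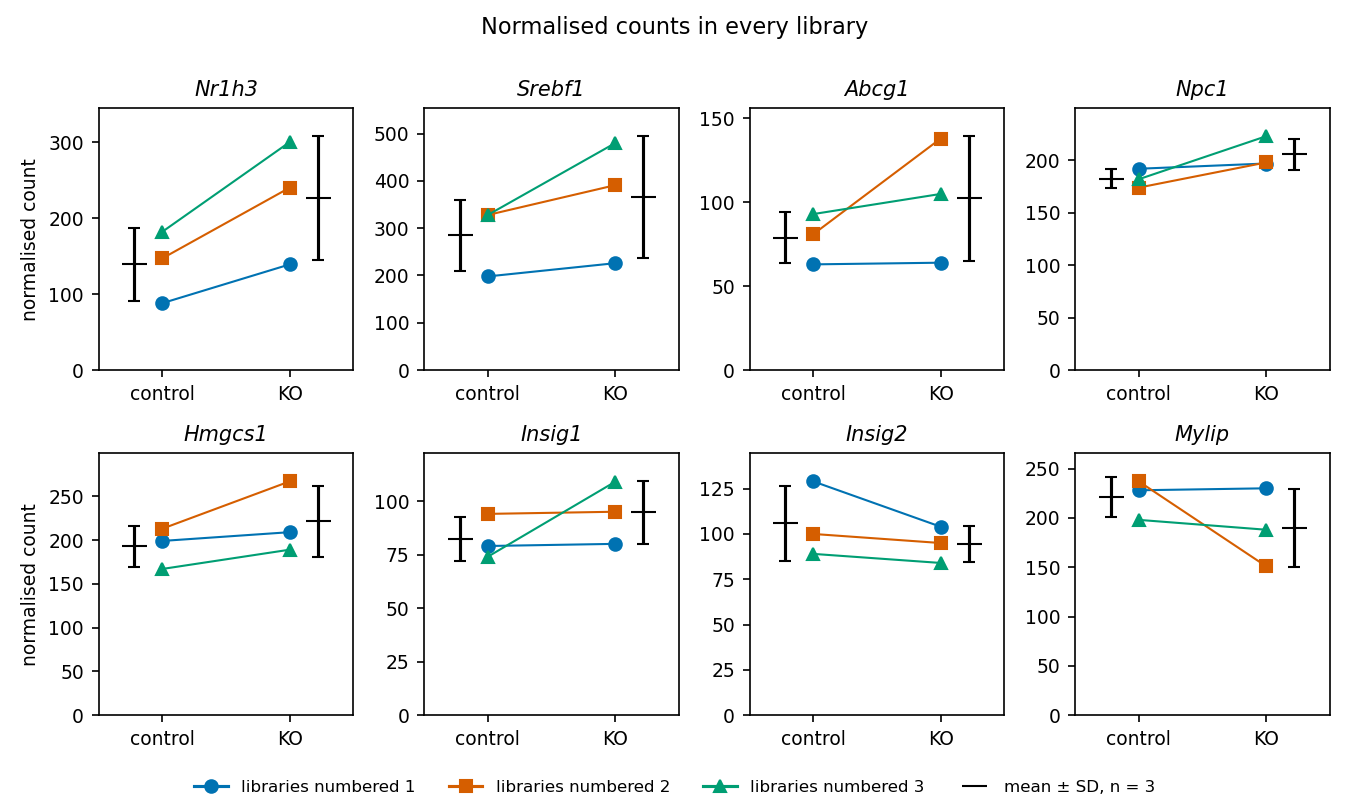
Normalised counts (vertical axes, from 0) of 8 of the genes in control and KO libraries. Lines join libraries with the same number and black marks give the mean ± SD (n = 3). The 3 lines of Nr1h3 go from 88, 147 and 182 to 139, 240 and 300, higher in KO in each number.

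Counted by number, 9 of the 32 genes were higher in KO in all 3 comparisons of same-numbered libraries, namely Hmgcs1, Ebp, Sc5d, Srebf1, Insig1, Lrp1, Npc1, Nr1h3 and Abcg1 (14% of all genes were). Insig2 and Nr1h2 were lower in all 3, which makes 2 genes (15.4% of all genes were).

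Markers of other cells moved with library number too. The 6 pericyte markers were higher in KO in 6 of 6, with sums of 8241, 9546 and 12257 in the control libraries against 8750, 10862 and 14154 in KO, and the highest of them, Abcc9, Notch3 and Rgs5, were, like Nr1h3, lowest in the libraries numbered 1 and highest in those numbered 3 in both groups. The 8 endothelial markers were higher in 8 of 8, with sums of 312, 437 and 577 in the control libraries against 335, 845 and 821 in KO. The 7 muscle fibre markers were higher in 7 of 7 on the log2 scale, with sums of 1240 to 2862 in controls and 1788 to 8312 in KO libraries. The highest sum was that of KO library 3, where Ttn alone was at 5386. Neb, Ryr1 and Myh4 were also higher there than in control library 3. Acta1, Ckm and Tnnt3 were lower, at 399, 200 and 318 against 488, 267 and 350. None of the pericyte, endothelial and muscle fibre markers passed limma's test. With the block, limma's unadjusted p was 6.1e-05 for Myh4, 0.00024 for Ttn, 0.0018 for Abcc9 and 0.0031 for Flt1. That of Nr1h3 was 7.05e-05 and that of Srebf1 0.00849. Other markers of these lists had large values with the block, such as 0.65 for Ckm, 0.72 for Cspg4 and 0.86 for Emcn. The part of these markers in the values of Nr1h3 and Srebf1 was not tested. Of 7 leukocyte and macrophage markers tested 4 were higher and 3 lower, their sums were 516, 126 and 435 in the control libraries against 366, 120 and 502 in KO, and their part was not tested either. Ptprc, the gene of CD45, was at 72, 1 and 23 against 47, 8 and 43, Lyz2 at 151, 38 and 145 against 101, 44 and 249, and Adgre1 at 20, 7 and 33 against 18, 4 and 24. All 7 smooth muscle markers had lower means in KO on the log2 scale, with a median difference of -0.07. Their differences ran from -0.00034 for Acta2 and -0.0031 for Des to -0.29 for Cnn1. Their sums were 9182 to 10184 in controls and 8368 to 9841 in KO libraries. Of 6 fibroblast markers 4 had lower means, with sums of 1924 to 2977 in controls and 1672 to 2825 in KO libraries. Of the fat cell markers Adipoq, Cidec and Lep were at or below 10 in every library, with Adipoq at 2 to 4 in controls and 0 in all KO libraries, and the sum of 5 was 190 to 252 in controls and 171 to 282 in KO libraries. Fabp4, at 152 to 272, made up most of that sum, and Plin1, the other fat marker tested, was at 36, 31 and 9 against 17, 8 and 6.

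Of 76 other genes of the pathway in 5 lists, 69 were tested, of which 39 were higher and 30 lower, with a median log2 difference of 0.03, and 0 passed limma's test with or without the block. At an unadjusted p under 0.05 there was 1 without the block, Scarb1 (1.81% of all genes were under it). With the block there were 7 higher (4.29% of all genes) and 4 lower (5.96%). Among the 22 tested genes of other sterol transport, storage and receptors, Scarb1, Lipa and Pltp had the smallest p without the block. Scarb1, for the receptor that exchanges cholesterol with high-density lipoprotein, was at 73, 96 and 77 in the control libraries against 90, 127 and 132 in KO, a difference of 0.49 with a standard error of 0.20 (unadjusted p = 0.0382 and adjusted p = 0.999 with limma, adjusted p = 0.275 with the block). Lipa, for the acid lipase that frees cholesterol from its esters in lysosomes, was at 75, 102 and 109 in the control libraries against 96, 151 and 146 in KO. Pltp, for a phospholipid transfer protein and a textbook LXR target, was at 84, 105 and 155 in the control libraries against 109, 175 and 200 in KO. In these 3 genes each KO library was higher than the control of its number, and in each the groups overlapped. Lower genes were also among those with an unadjusted p under 0.05 with the block, among them Nceh1, for a cholesterol ester hydrolase, and Vldlr, for a lipoprotein receptor, both named after their values were seen. Nceh1 was at 75, 52 and 42 against 64, 22 and 36, a difference of -0.55, and Vldlr at 302, 315 and 172 against 315, 171 and 118, a difference of -0.45. That list as a whole was split evenly, with 11 of 22 higher and a median of -0.00.

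Of 15 tested fatty acid synthesis genes, on which SREBP1 acts, 10 were higher, with a median of 0.05. Scd1 and Scd2, for the desaturases that make oleate, were at 88, 104 and 94 and at 367, 477 and 377 in controls, and at 96, 139 and 147 and at 410, 566 and 543 in KO libraries. Their differences were 0.39 and 0.31, with each KO library above the control of its number. Acacb, for the acetyl-CoA carboxylase that restrains fatty acid oxidation, was at 206, 193 and 188 in the control libraries against 180, 145 and 161 in KO, lower in KO without overlap (2.21% of all genes were), with a difference of -0.28 (unadjusted p = 0.0642 and adjusted p = 0.999 with limma).

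**Figure D5:**
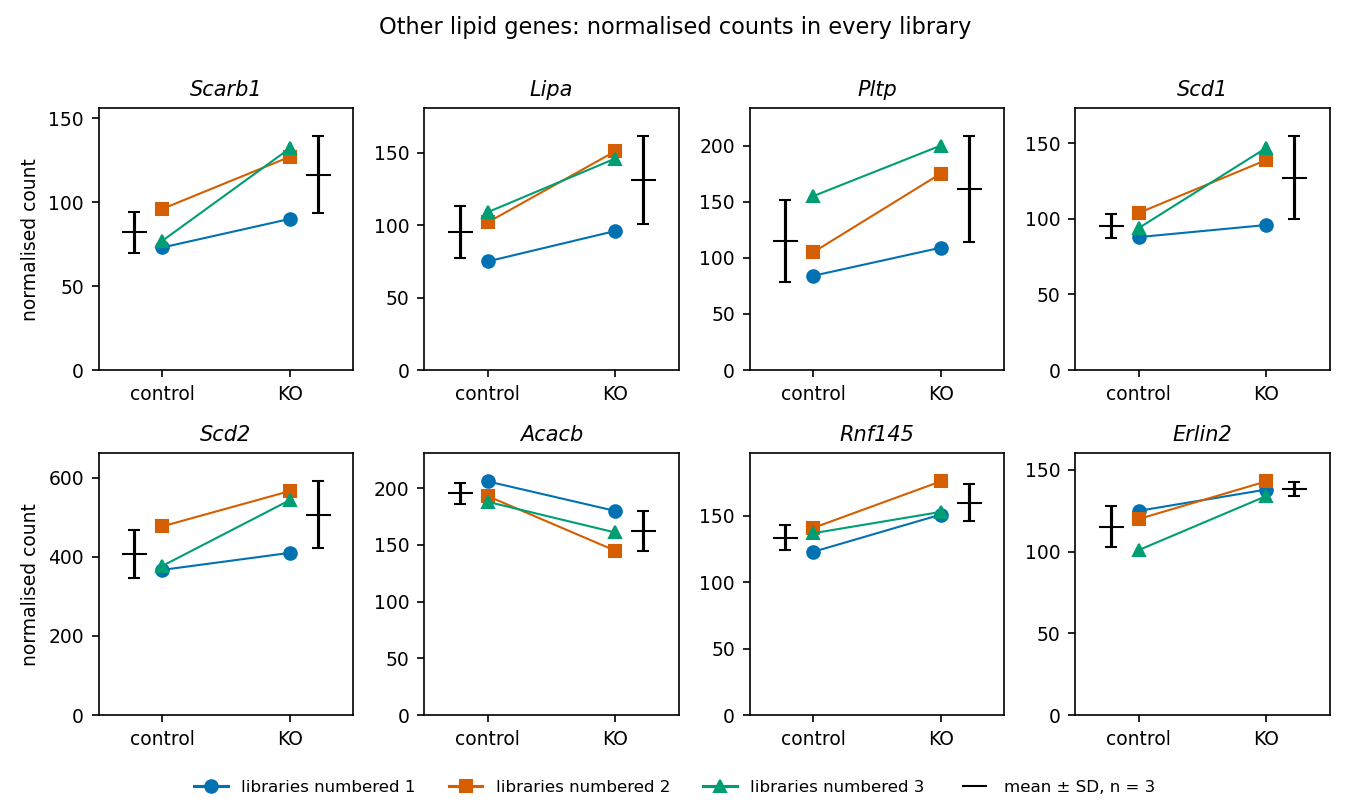
Normalised counts (vertical axes, from 0) of 8 other lipid genes in control and KO libraries, drawn as in the plot of cholesterol genes, with lines joining libraries of the same number and the mean ± SD (n = 3). Acacb lies lower in the KO libraries and the other 7 lie higher in each number.

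SREBP processing and degradation genes were higher in 7 of 11, with a median of 0.08. Rnf145 and Erlin2, which act in sterol sensing and degradation at the endoplasmic reticulum, did not overlap between groups, being higher in KO as were 2.69% of all genes. Rnf145 was at 123, 141 and 137 in the control libraries against 151, 176 and 153 in KO, and Erlin2 at 125, 120 and 101 against 138, 143 and 134. Their differences were 0.26 and 0.27, with an adjusted p from limma of 0.999 each. The third by p, Faf2, was at 183, 190 and 174 against 186, 208 and 190, a difference of 0.09. Genes of the isoprenoid branches were higher in 9 of 12, with a median of 0.08, and the 3 with the smallest p were Zmpste24, Coq2 and Dhdds. Zmpste24, for a protease of farnesylated proteins, was at 134, 119 and 97 against 138, 124 and 136, Coq2 at 91, 113 and 90 against 100, 114 and 116, and Dhdds at 133, 134 and 111 against 119, 104 and 120. Oxysterol enzymes and receptor partners were higher in 2 of 9, with a median of -0.04, and the 3 with the smallest p were Rxrg, Ncoa6 and Rxrb, of which Rxrg and Rxrb encode partner receptors of LXR. Rxrg was at 32, 33 and 13 against 32, 14 and 11, Ncoa6 at 455, 350 and 374 against 455, 392 and 423, and Rxrb at 147, 138 and 150 against 108, 151 and 144. All genes tested had a median of 0.00, and nothing particular to any of these lists can be read from their counts.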

How the data were processed

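RNA of sorted smooth muscle cells was sequenced in 6 libraries, 3 per group, with groups from the sample descriptions. The deposited values are treated as a score, since by the table's name and values the authors appear to have scaled each library's read counts by a single factor and rounded them. How control library 3, with 7733 genes at 1, came to its values is not known. Per the submitters' processing notes, the tools were DESeq2 1.18.1, featureCounts 1.6.5, STAR 2.6.1d and Trimmomatic 0.39, and the builds mm10 and GRCm38.p5. The sources used here give no settings for strand, duplicates or multi-mapping reads. The worth of 1 read, 0.755 to 1.3995, was estimated from how often each whole number occurs, and whole reads were not recovered because rounding merges them where it is under 1.

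Differences were tested with limma 3.58.1 (R 4.3.3) using an intensity trend, 2-sided, on log2(value + 1) of the 12735 genes whose mean was 10 or more. Adjusted p-values are Benjamini-Hochberg values, called under 0.05. The fold change of low genes is understated on this scale. Replicate numbers were treated as pairing the libraries because deviations of same-numbered libraries correlated at 0.59, 0.31 and 0.44, a hint from the data that no label states. Members and lists were chosen with earlier results of these data known. Of the 33 genes, values in every library are given for those without overlap or with 1 sign in all numbers, for the 3 smallest p per role and for all SREBP and LXR genes, and of the other pathway genes for the 3 smallest p per list. Gene lengths came from GENCODE vM21, where 32108 of 32179 identifiers matched. Counting errors cover counting only. Alternatives were the block, other pseudocounts, filters, scalings and weights, and leaving out libraries.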

Additional observations from a re-analysis of the deposited data

How the results depend on the processing

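None of the 32 genes tested passed limma's test under any of 18 alternatives, and the smallest adjusted p among them, 0.0515 for Nr1h3, came from the block without the libraries numbered 1. The number of genes with a higher KO mean, 25 of 32, ranged from 18 to 27 over the alternatives. The 18 came from a smaller set, as only genes with a mean of at least 50 were tested there. With all 32 genes the number also fell when single libraries were left out, as given above. The genes passing over the whole table were 0 without a block, 1 with the replicate block, 2 with sample quality weights, and 0 to 61 when a library or a number was left out, 61 being the block without number 1. The block changed no call of the 32 genes. For 15 of them the direction held throughout, with Nr1h3 between 0.40 and 1.01. The other 17 had the opposite sign under at least 1 alternative. With sample quality weights the log2 differences of such genes were Idi1 -0.25, Srebf2 0.000137, Stard4 -0.15, Soat1 0.082, Nr1h2 0.014 and Abca1 -0.040. When a library, or both libraries of a number with the block, were left out, the ranges were Pmvk -0.59 to 0.27, Nsdhl -0.22 to 0.26, Lrp1 -0.12 to 0.28, Abca1 -0.10 to 0.16, Srebf2 -0.16 to 0.12, Mvk -0.15 to 0.39, Idi1 -0.30 to 0.38, Sqle -0.15 to 0.38, Cyp51 -0.047 to 0.37, Stard4 -0.16 to 0.25, Soat1 -0.22 to 0.042, Mvd -0.094 to 0.70, Lss -0.054 to 0.16, Dhcr7 -0.025 to 0.28, Nr1h2 -0.10 to 0.0024, Tm7sf2 -0.80 to 0.036 and Msmo1 -0.0053 to 0.42. The cause was not tested. Depth limits the low genes most, with an estimated 7 reads for the lowest value of Idi1, a counting error of 37.8%, and the median 95% interval of the 32 genes reached 0.53 to either side of the difference, or 0.37 with the block.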
